A study of Homo sapiens with 7 samples.

Results

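The genes described here are the well expressed members of the ZNF series in H1 human embryonic stem cells treated with XMD892. They were chosen as the gene symbols made of ZNF and a number whose mean normalised read count over the E8 libraries was 500 or more; a normalised read count is a gene's reads after scaling of its library and is not corrected for gene length. This gave 134 of the 487 ZNF genes and of the 19775 genes listed, and all 134 passed the filter for testing. The symbol alone does not show a C2H2 zinc finger, and a search found its pattern in 130 of the 134. The choice used the E8 values, so comparisons with E8 describe these genes and are no independent test of a direction. Fold changes between times of XMD892 used none of the values that chose the genes. Their p-values rest on a spread to which the E8 libraries also contributed. C2H2 fingers hold a zinc ion between cysteines and histidines and read short stretches of DNA. Many ZNF genes also encode a KRAB domain, which recruits the corepressor TRIM28 and with it the histone methyltransferase SETDB1, and which in pluripotent stem cells takes part in silencing transposable elements. Other ZNF proteins act in splicing, ribosome quality control or mitosis.

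H1 is a long established human embryonic stem cell line, wild type here. All groups were grown in E8, a defined medium with FGF2, TGFβ, insulin and transferrin. The groups were XMD892 at 1 µM for 12 h (1 library), 24 h (2 libraries) or 48 h (2 libraries), and E8 alone for 48 h (2 libraries), the control of every XMD892 time. Only the 48 h group matches E8 in time, so at 12 h and 24 h a difference of XMD892 and a difference of time cannot be told apart. XMD892 inhibits kinases, ERK5 being the one named in the title of the study, and poly(A) RNA was sequenced from paired ends. The 12 h group has no replicate, and nothing says that replicates came from separate cultures, so errors and p-values cover the spread between these libraries, which may be technical.

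The listed genes held between 18528689 and 24148186 reads per library. The 134 ZNF genes took 0.690% of them at 12 h, 0.665% and 0.669% at 24 h, 0.646% and 0.683% at 48 h, and 0.783% and 0.710% in E8. The share was lower in each XMD892 library than in either E8 library. High E8 values chose these genes, which by itself can raise their share in E8, so this direction is no independent result. All 6 pluripotency markers examined were well expressed, with group means from 2800 for NANOG at 48 h to 62600 for POU5F1 at 48 h, while the 11 lineage markers listed had group means between 1.49 and 723, the highest being SIX3 in E8. The group means of NANOG were 3060, 4020 and 2800 at 12, 24 and 48 h against 6220 in E8. Those of TDGF1 were 7790, 7030 and 6420 against 11100, and those of SOX2 were also below E8 at each time. POU5F1, LIN28A and DNMT3B lay above E8 at some times and below it at others.

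As a group the ZNF genes were slightly lower under XMD892 than in E8. Their choice by high E8 values can give this direction by itself. In bulk RNA, fewer cells that express a gene and less RNA per cell cannot be told apart. The median log2 fold change over the 134 genes was -0.05 at 12 h, -0.16 at 24 h and -0.11 at 48 h, where the medians of all 16351 tested genes were 0.02, 0.01 and 0.02. A negative fold change was found in 90 of the genes and a positive one in 44 at 24 h, with 92 and 42 at 48 h. Between the E8 libraries themselves the first was higher by a median of 0.165 over these genes, so the shift depends on which of them is the reference. Few genes passed the test alone. At a limma p under 0.05 after Benjamini-Hochberg adjustment over all tested genes, 10 of 134 changed at 12 h, or 7.46% of them, beside 7.46% of all tested genes. At 24 h 15 changed, or 11.2% of them beside 16.2% of all tested genes, and at 48 h 10 changed, or 7.46% beside 11.5%.

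The calls against E8 were mostly decreases, a direction that the choice of genes by high E8 values can favour by itself. At 12 h 1 gene rose and 9 fell, while 2.56% of all tested genes rose and 4.89% fell. At 24 h 3 rose and 12 fell, while 8.66% of all tested genes rose and 7.56% fell. At 48 h none rose by limma, edgeR or DESeq2 (6 had a positive change at an unadjusted limma p under 0.05) and 10 fell, while 5.08% of all tested genes rose and 6.45% fell. The 3 comparisons share the E8 libraries, so they do not count as separate evidence for a direction. The E8 values also chose the genes, so the lean to decreases is no independent result. Tested ZNF genes under the threshold, left out for their lower E8 values, did not show it. Of these, 6 rose and 2 fell at 12 h, 16 rose and 17 fell at 24 h, and 14 rose and 7 fell at 48 h. How far the lean goes with the choice was not tested. At 12 h, a fit of the 12 h and E8 libraries alone kept 1 of the 10 calls, ZNF850. In all, 23 of the 134 genes were called at some time, or 17.2%, beside 22.8% of all tested genes.

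The 6 members that fell at both 24 h and 48 h, also after removal of each library's trend along transcript GC content (the GC trend), were ZNF770, ZNF525, ZNF850, ZNF618, ZNF532 and ZNF827, and all but ZNF827 fell at 12 h too. ZNF770, on chromosome 15 at 34978341 to 34988287 of GRCh38 (minus strand), had 2223 normalised reads at 12 h of XMD892, 2002 and 2369 at 24 h and 1905 and 2161 at 48 h, against 4737 and 3406 in E8. All 5 XMD892 libraries lay below both E8 libraries, although the E8 libraries themselves were far apart. Its log2 fold change was -0.85 ± 0.20 (SE) at 12 h, -0.88 ± 0.16 at 24 h and -0.99 ± 0.16 at 48 h (limma adjusted p = 0.01, 0.0011 and 0.00037), and with the GC trend removed it was -0.75, -0.68 and -0.84. An unnamed gene on the opposite strand, AC114546.3, shares exon bases with ZNF770. Lack of overlap with E8 at a single time was common, and a part of the rule for naming genes asked for it. It was seen in 72.6% of all tested genes at 12 h, 58.4% at 24 h and 52.3% at 48 h. Among the 134 genes the shares were 63.4%, 55.2% and 38.8%.

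ZNF525 and ZNF850 belong to the KRAB type and stand in zinc finger clusters of chromosome 19, ZNF525 at 53365693 to 53392217 (plus strand) and ZNF850 at 36714383 to 36772825 (minus strand). ZNF525 had 432.6 normalised reads at 12 h of XMD892, 447.8 and 466.7 at 24 h and 437.3 and 454.2 at 48 h, against 891.4 and 683.3 in E8. The XMD892 libraries lay close together at every time and below both E8 libraries, a 1.80-fold lower level at 12 h, 1.71-fold lower at 24 h and 1.75-fold lower at 48 h (limma adjusted p = 0.015, 0.0043 and 0.0035). ZNF850 had 376.8 at 12 h of XMD892, 513.4 and 496.7 at 24 h and 340.2 and 495.9 at 48 h, against 830.3 and 723.0 in E8, again with no overlap. Its log2 fold change was -1.04 at 12 h, -0.62 at 24 h and -0.91 at 48 h (limma adjusted p = 0.006, 0.026 and 0.0022), and the 48 h call was lost without the first 48 h library (adjusted p = 0.1). Its 24 h call was lost without the first E8 library (adjusted p = 0.074) or without either 24 h library (0.095 and 0.11). Both genes have close relatives in these clusters, and how reads that match several copies were counted is not given in the sources used here, so their counts are uncertain in that respect.

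ZNF618, on chromosome 9 at 113876282 to 114056591 (plus strand), encodes a protein that binds UHRF2, a reader of 5-hydroxymethylcytosine. It had 848.0 normalised reads at 12 h of XMD892, 604.0 and 726.7 at 24 h and 914.6 and 673.4 at 48 h, against 1430 and 1482 in E8. The E8 libraries were nearly equal and all XMD892 libraries were lower, by a factor of 1.72 at 12 h, 2.20 at 24 h and 1.85 at 48 h (limma adjusted p = 0.024, 0.00013 and 0.0014). Without the second 48 h library the 48 h call was lost (adjusted p = 0.066). At a transcript GC content of 52.8% it is also the only one of the 6 above the median GC of all tested genes, 48.6%.

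ZNF532 (chromosome 18, 58862600 to 58986480, plus strand) encodes a partner of the chromatin reader ZMYND8. Its values were 3055 at 12 h of XMD892, 2361 and 2861 at 24 h and 3669 and 3228 at 48 h, against 5412 and 4377 in E8, and it was the second highest of the 134 genes in E8 by count. The lowest values were those at 24 h, and no XMD892 library reached the lower E8 library. The log2 fold change was -0.67 ± 0.19 at 12 h, -0.90 ± 0.15 at 24 h and -0.50 ± 0.15 at 48 h (SE; limma adjusted p = 0.031, 0.0005 and 0.037), and the 48 h call was lost without the first E8 library (adjusted p = 0.11) or without either 48 h library (0.10 and 0.27). ZNF827 (chromosome 4, 145757627 to 145938635, minus strand), whose product recruits the NuRD complex to telomeres in cells that lengthen them without telomerase, had 676.3 at 12 h of XMD892, 445.7 and 680.0 at 24 h and 720.3 and 663.5 at 48 h, against 1165 and 1034 in E8. Its libraries did not overlap either, with log2 fold changes of -0.99 at 24 h and -0.67 at 48 h (limma adjusted p = 0.001 and 0.02). The 24 h call of ZNF827 was lost without the first 24 h library (adjusted p = 0.053), and its 48 h call without either 48 h library (adjusted p = 0.088 and 0.15).

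**Figure D1:**
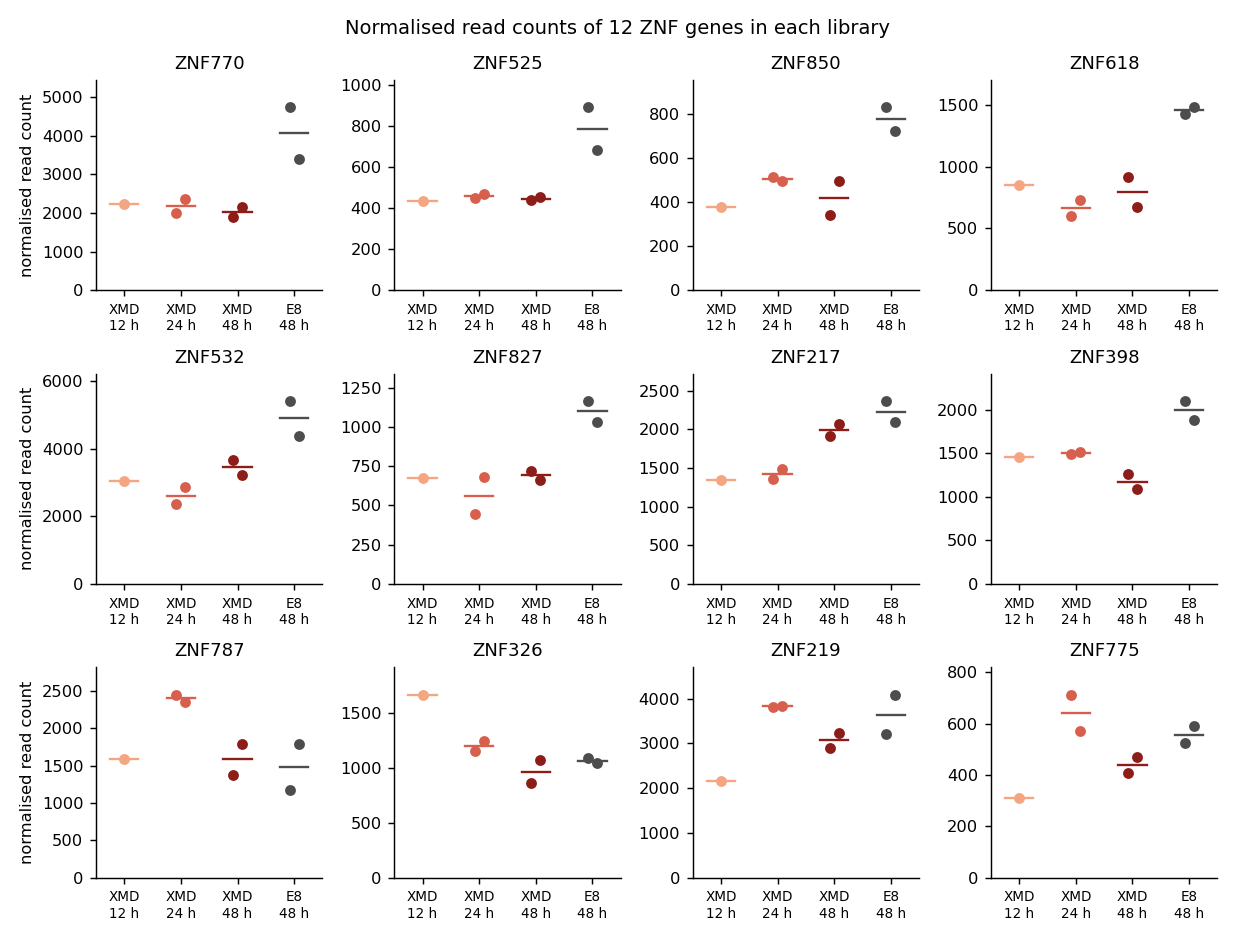
Normalised read count of 12 ZNF genes (y axis of each panel, from 0) in the XMD892 libraries at 12, 24 and 48 h and the E8 libraries; points are libraries and short lines the group mean. ZNF770, ZNF525, ZNF850, ZNF618, ZNF532 and ZNF827 have all 5 XMD892 libraries below both E8 libraries, while ZNF219 and ZNF775 are lowest at 12 h.

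The promoters of ZNF770, ZNF850 and ZNF525 are shown because these genes were lower at all 3 times and have 1 window each. They are RefSeq windows on GRCh38.p14 from 250 bases before to 50 after a gene start, read 5′ to 3′ along the gene. Capitals mark matches on either strand to GGGCGG (the GC box), to CCAAT, to the sequence CCGGAAG that ETS factors bind and to the cAMP response element TGACGTCA, and the windows are chr15:34988238-34988537 (minus strand) for ZNF770, chr19:36772758-36773057 (minus strand) for ZNF850 and chr19:53365455-53365754 (plus strand) for ZNF525.
ZNF770: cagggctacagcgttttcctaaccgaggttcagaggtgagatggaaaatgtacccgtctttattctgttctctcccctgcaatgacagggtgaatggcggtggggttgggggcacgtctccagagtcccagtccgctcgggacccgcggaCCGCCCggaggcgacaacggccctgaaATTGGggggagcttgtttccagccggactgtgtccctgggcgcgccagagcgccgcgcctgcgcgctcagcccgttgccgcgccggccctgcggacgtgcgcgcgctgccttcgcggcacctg
ZNF850: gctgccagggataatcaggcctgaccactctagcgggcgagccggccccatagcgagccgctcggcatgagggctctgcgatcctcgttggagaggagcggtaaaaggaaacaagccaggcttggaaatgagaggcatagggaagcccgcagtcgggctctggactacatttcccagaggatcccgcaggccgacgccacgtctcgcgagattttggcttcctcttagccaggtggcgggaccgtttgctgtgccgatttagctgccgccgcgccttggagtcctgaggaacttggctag
ZNF525: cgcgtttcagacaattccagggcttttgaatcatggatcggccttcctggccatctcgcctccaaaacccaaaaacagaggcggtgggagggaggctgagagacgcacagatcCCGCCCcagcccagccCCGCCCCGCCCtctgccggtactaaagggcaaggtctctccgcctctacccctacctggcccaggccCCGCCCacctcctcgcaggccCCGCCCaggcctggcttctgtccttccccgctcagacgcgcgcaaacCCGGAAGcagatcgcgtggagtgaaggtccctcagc
The ZNF850 window held none of the 4 motifs, the ZNF770 window 1 GC box and 1 CCAAT, and the ZNF525 window 5 GC boxes and 1 CCGGAAG, overlapping matches counted. Over the ZNF genes, 118 of 134 matched the RefSeq table, with 150 windows. CCGGAAG stood in 39.3% of these windows, in 15.7% of the 16159 windows of tested genes and in 10.3% of all 35116 windows. GGGCGG stood in 64.7%, 65.6% and 45.0% of the same sets, CCAAT in 36.0%, 34.1% and 34.6%, and TGACGTCA in 4.67%, 2.67% and 1.85%. A match describes the letters of the window and not the binding of a factor.

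Several other genes fell at 1 or 2 times. ZNF217, an oncogene product of the CoREST and LSD1 corepressor complex, had 1345 normalised reads at 12 h of XMD892, 1358 and 1484 at 24 h and 1915 and 2071 at 48 h, against 2368 and 2095 in E8. It was low at 12 h and 24 h (log2 fold change -0.73 and -0.65, limma adjusted p = 0.015 and 0.0049) and near E8 at 48 h (-0.16, adjusted p = 0.52). The 24 h call was lost without the first 24 h library (adjusted p = 0.095), and the change between 48 h and 24 h was 0.49 (adjusted p = 0.12). ZNF398, a pluripotency factor that acts with SMAD3 downstream of TGFβ in human stem cells, had 1461 at 12 h of XMD892, 1499 and 1512 at 24 h and 1260 and 1090 at 48 h, against 2103 and 1890 in E8. Every XMD892 library was below E8, and the test was passed at 48 h only, with a log2 fold change of -0.77 ± 0.15 (SE, limma adjusted p = 0.0017), against -0.45 at 12 h and -0.41 at 24 h (adjusted p = 0.14 and 0.067). The change between 48 h and 24 h, -0.36, did not pass the test (adjusted p = 0.3). With the GC trend removed ZNF398 was called at 12 h and 24 h too, and its 48 h call was lost without the second 48 h library (adjusted p = 0.054).

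ZNF300 and ZNF677, both of the KRAB type, fell at 24 h. ZNF300 had 386.3 and 362.9 normalised reads at 24 h against 656.6 and 562.7 in E8, a log2 fold change of -0.70 (limma adjusted p = 0.0078), and the call was lost without the second 24 h library (adjusted p = 0.068). ZNF677 had 335.3 and 377.9 at 24 h against 604.2 and 520.6 in E8, a change of -0.65 (limma adjusted p = 0.012), lost without the first 24 h library (adjusted p = 0.16). ZNF121 fell at 48 h, with 1744 and 2352 against 3622 and 2884 in E8 (log2 fold change -0.67, limma adjusted p = 0.012), but not without the first 48 h library (adjusted p = 0.25). ZNF721, with 473.0 and 583.2 at 48 h against 910.6 and 690.8 in E8 (log2 fold change -0.59, limma adjusted p = 0.045), lost its call without either 48 h library or without the first E8 library (adjusted p = 0.18). ZNF721 shares same-strand exon bases with ABCA11P.

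The increases were few. ZNF787, which has 7 fingers and no KRAB pattern, had 2446 and 2348 normalised reads at 24 h against 1177 and 1782 in E8 (log2 fold change 0.73 ± 0.18, SE, limma adjusted p = 0.0087). The groups did not overlap, the E8 libraries stood 0.60 apart on the log2 scale, and without the first E8 library the adjusted p was 0.056. ZNF316 (853.9 and 803.4 at 24 h against 465.4 and 661.8 in E8) and ZNF48 (1419 and 1429 against 903.6 and 1099) had log2 fold changes of 0.58 and 0.51 (limma adjusted p = 0.03 and 0.026), and both lost the call without the first E8 library (adjusted p = 0.2 and 0.09) or without either 24 h library. With the GC trend removed ZNF787 and ZNF48 kept the call and ZNF316 did not (adjusted p = 0.059). All 3 have GC-rich transcripts, between 61.2% and 70.3%. At 12 h ZNF326, a subunit of the DBIRD complex that couples splicing to transcript elongation, had 1668 reads against 1095 and 1042 in E8 (log2 fold change 0.64, limma adjusted p = 0.042), with 1157 and 1247 at 24 h and 866.0 and 1071 at 48 h. This call was lost without any 1 of the 24 h and 48 h libraries (adjusted p = 0.06 to 0.061).

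Most other members with a well known role did not pass the test. ZNF207 (BuGZ), which acts in spindle assembly and was the highest of the 134 genes by count, had 5169 at 12 h of XMD892, 4579 and 4556 at 24 h and 4874 and 4712 at 48 h, against 5946 and 4716 in E8. The XMD892 values sat around the second E8 library and below the first. ZNF281, a repressor of pluripotency genes in mouse embryonic stem cells, had values from 1414 to 1636 under XMD892, against 1848 and 1581 in E8. ZNF598, the ubiquitin ligase that marks collided ribosomes, had 1282 and 1435 at 24 h against 925.5 and 1166 in E8 (log2 fold change 0.38, limma adjusted p = 0.099). ZNF143, an activator that binds many promoters, had 374.9 and 455.5 at 24 h against 571.9 and 575.9 in E8 (-0.47, adjusted p = 0.065).

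Regulators of heterochromatin and imprinting among the members showed small differences as well. ZNF462, which in mouse embryonic stem cells helps to keep lineage genes in heterochromatin, had 851.8 and 1026 normalised reads at 24 h and 1081 and 852.9 at 48 h, against 1323 and 1271 in E8, with log2 fold changes of -0.47 and -0.43 (limma adjusted p = 0.0502 and 0.086), and was called at both times with the GC trend removed. ZNF445, which maintains methylation at imprinted loci, had 1385 and 1423 at 24 h and 1431 and 1575 at 48 h against 1028 and 1193 in E8 (0.34 and 0.44, adjusted p = 0.13 and 0.061), and was likewise called at both times with the GC trend removed. ZNF91 and ZNF93, which silence SVA and L1 retrotransposons, had log2 fold changes of -0.30 and -0.26 at 24 h (limma adjusted p = 0.29 and 0.33). ZNF638, which acts with the HUSH complex on unintegrated retroviral DNA, and ZNF644, a partner of the methyltransferase G9a, stood at -0.19 and -0.45 at 24 h (adjusted p = 0.43 and 0.072), ZNF331, an imprinted gene, at -0.06 (adjusted p = 0.83) and ZNF423, a SMAD partner in BMP signalling, at 0.20 (adjusted p = 0.4). ZNF292 was called at 24 h, with 548.8 and 549.0 against 1037 and 668.5 in E8 (-0.60, limma adjusted p = 0.031), and its first E8 library stood 0.63 above the second on the log2 scale. Set against the second E8 library alone, the ZNF292 difference at 24 h was -0.28, and against the first alone -0.92; with the GC trend removed it was -0.40 (limma adjusted p = 0.031). The ZNF292 call was lost without the first E8 library (adjusted p = 0.29) or without either 24 h library (0.11 and 0.088). Among the called genes not described above, ZNF562 and ZNF826P (24 h) and ZNF516 (12 h) lost the call without any 1 of the 24 h and 48 h libraries, the first 2 also without the first E8 library, and ZNF426 (48 h) without either 48 h library (limma).

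Both E8 libraries were compared along the GC content of the longest transcript of each gene, because low-GC genes read higher in the first. Over the 134 genes the log2 difference of the first minus the second E8 library had a Spearman correlation of -0.83 with GC content, and over the 16024 tested genes with a GC value it was -0.64. These points share 2 libraries and are given as a description. The median difference was 0.38 in the 45 genes of lowest GC (median GC 37.3%), 0.157 in the middle 44 (43.3%) and -0.27 in the 45 of highest GC (57.3%). The members had a median GC of 43.3%, below the 48.6% of all tested genes, and 42 of the 134 lay under 40%. ZNF292, with a GC content of 36.5%, had the largest positive difference among the members, 0.63.

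**Figure D2:**
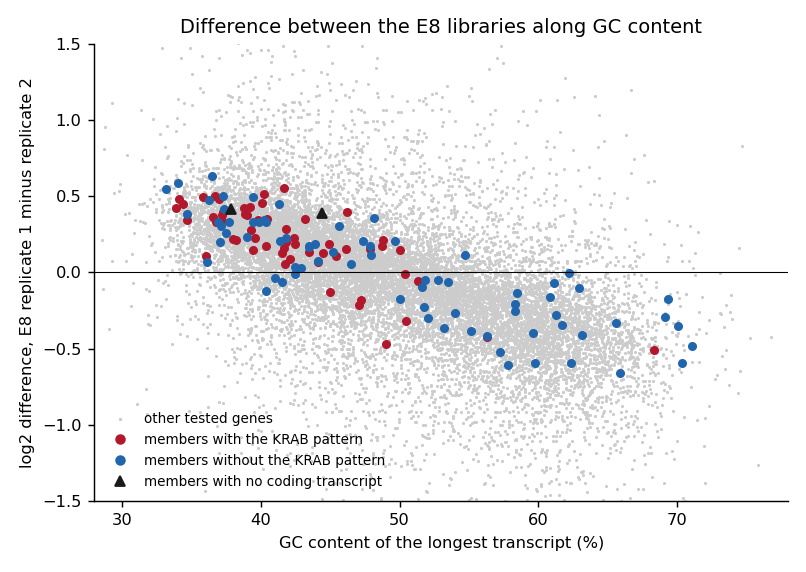
Log2 difference of the first minus the second E8 library (y axis) against GC content of the longest transcript in percent (x axis), for the ZNF genes with and without the KRAB pattern, the 2 with no coding transcript (triangles) and all other tested genes (grey). Most ZNF genes of low GC lie above zero and most of high GC below it; 177 other genes lie outside the axes.

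The common shift of the ZNF genes moved with this difference. Against the first E8 library alone the median log2 fold change was -0.15 at 12 h, -0.25 at 24 h and -0.23 at 48 h, and against the second alone it was 0.01, -0.05 and -0.05. After loess removal of the trend of each library along GC the medians were 0.01, -0.02 and -0.02, where those of all tested genes were 0.07, 0.05 and 0.06. Without the first E8 library 11 of the 134 genes were called at 24 h and 9 at 48 h, beside 10.4% and 9.79% of all tested genes. Without the second 58 and 39 were called, beside 30.1% and 24.8%. With the GC trend removed the counts were 21 at 12 h (7 higher, 14 lower), 20 at 24 h (5 higher, 15 lower) and 18 at 48 h (5 higher, 13 lower), beside 17.0%, 22.6% and 21.2% of all tested genes. Of the 15 calls at 24 h and the 10 at 48 h, 14 and 10 were kept with the trend removed. At 24 h the genes called lower only after removal (named after their values were seen) were ZNF398, ZNF462 and ZNF516, and those called higher only then ZNF326, ZNF444 and ZNF445.

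**Figure D3:**
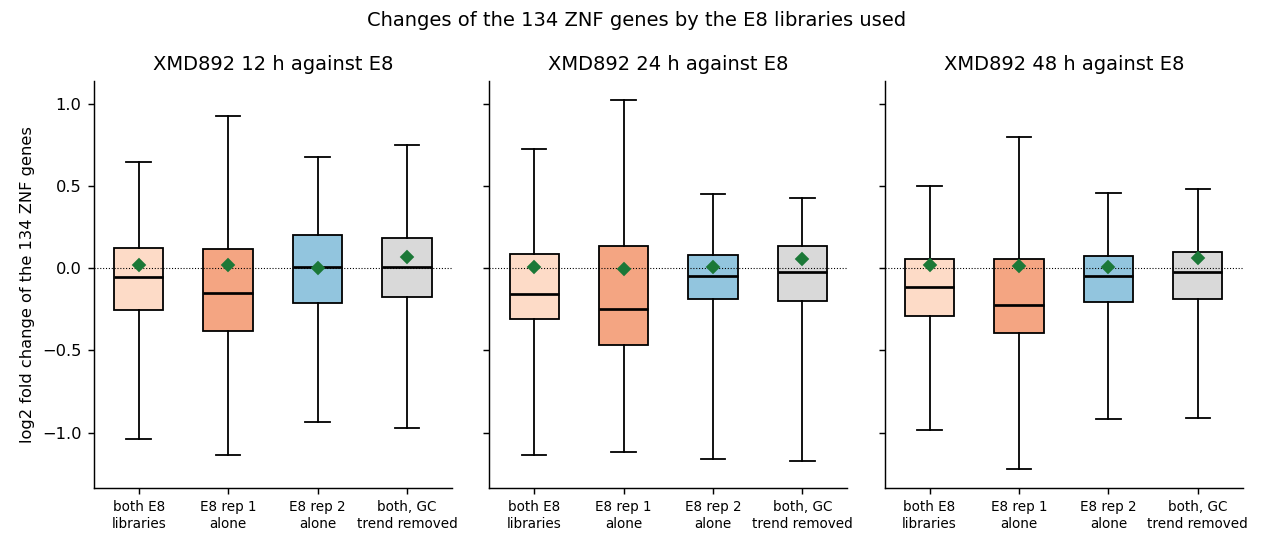
Log2 fold change of the 134 ZNF genes at 12, 24 and 48 h of XMD892 (panels) against both E8 libraries, either alone, or both with the GC trend removed. Boxes span the quartiles with the median line, whiskers reach the lowest and highest gene, and green diamonds mark the median of all tested genes with a GC value; the ZNF median at 24 h is -0.25 against the first E8 library and -0.05 against the second.

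Within the ZNF genes the fold changes followed GC content. The Spearman correlation with GC was 0.05 at 12 h, 0.50 at 24 h and 0.37 at 48 h against E8, and 0.13 and 0.10 at 24 h and 48 h with the trend removed (n = 134 genes that share the same libraries). At 24 h the 45 genes of lowest GC had a median log2 fold change of -0.23 (41 negative), the middle 44 had -0.21 (37 negative) and the 45 of highest GC had 0.185 (12 negative). Beside other tested genes of like GC content the ZNF genes had the lower median in 8 of 10 deciles at 24 h, by up to 0.23 (decile 5, 10 genes), and in 9 of 10 at 48 h. Only the ZNF genes were chosen by a high E8 level, which by itself can lower a change against E8. The deciles also share the same libraries, so they are a description and no separate checks. In the lowest decile of all tested genes by GC, the 30 ZNF genes had a median of -0.21 and the other genes -0.15 at 24 h, and in the next decile the 20 ZNF genes had -0.26 and the other genes -0.11. In the highest decile both were positive, 0.38 for 13 ZNF genes and 0.31 for the other genes.

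**Figure D4:**
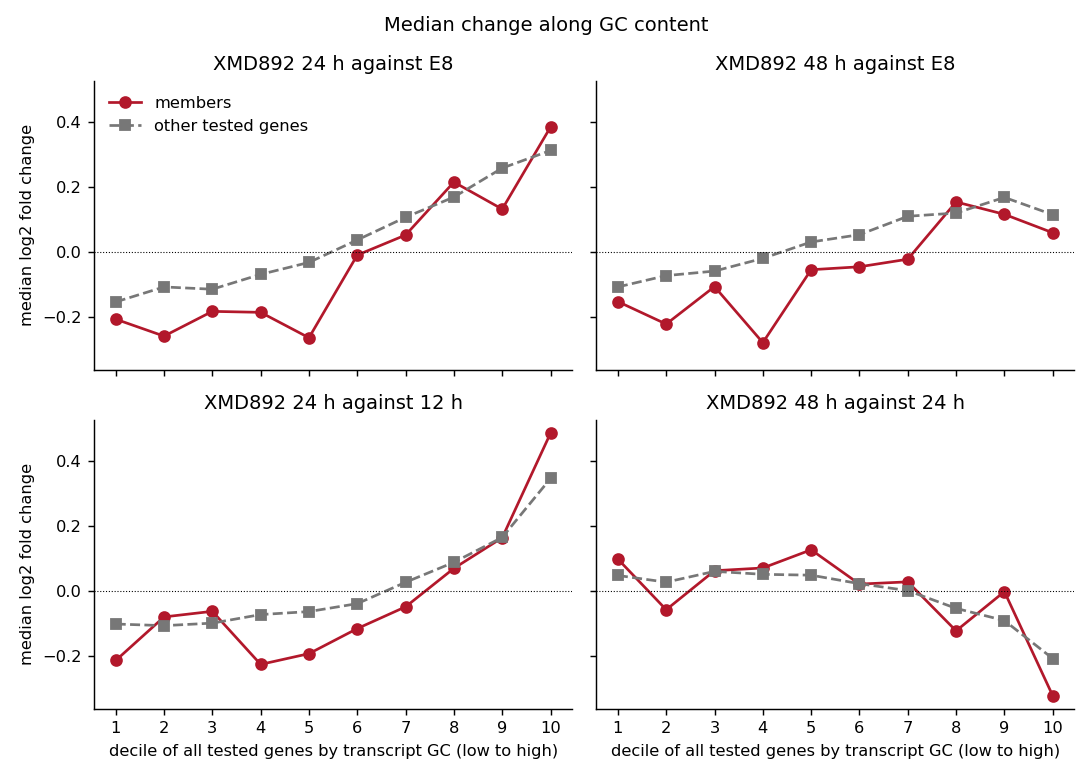
Median log2 fold change (y axis) of the ZNF genes (red) and of other tested genes (grey) in deciles of all tested genes by transcript GC content, low to high (x axis), for 24 h against E8, 48 h against E8, 24 h against 12 h and 48 h against 24 h. Both kinds of gene move along GC in the same direction; the deciles hold 5 to 30 ZNF genes.

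Fold changes between times of XMD892 used no value that chose the genes. In the fit of all 7 libraries, the spread behind their p-values included the E8 libraries. Between 48 h and 24 h no ZNF gene was called by limma, edgeR or DESeq2, although 19 had an unadjusted limma p under 0.05, and 1.2% of all tested genes were called. Other limma fits called some: 3 with the GC trend removed (ZNF217 and ZNF516 higher, ZNF101 lower), beside 2.73% of all tested genes, and 11 in a fit of the 24 h and 48 h libraries alone, beside 6.38%. The median log2 fold change was 0.0004, with 67 genes on either side of zero and the middle 50% of genes between -0.15 and 0.15 (limma). Between 24 h and 12 h the median was -0.10, with 84 genes negative and 50 positive, and that of all tested genes was -0.003. With the GC trend removed it was -0.06, and the fold changes had a Spearman correlation of 0.46 with GC before and 0.14 after removal. The 12 h library stands alone, so a difference of that library and a difference of the time cannot be told apart.

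Both genes called between 24 h and 12 h rose, and 0.391% of all tested genes were called. ZNF775 had 712.3 and 571.5 normalised reads at 24 h against 311.3 at 12 h (log2 fold change 1.03 ± 0.21, SE, limma adjusted p = 0.034), with 407.1 and 468.1 at 48 h and 523.0 and 591.6 in E8. ZNF219, a zinc finger repressor, had 3819 and 3833 at 24 h against 2154 at 12 h (0.83 ± 0.18, limma adjusted p = 0.0496), with 2893 and 3241 at 48 h and 3198 and 4084 in E8. Both were lowest in the 12 h library, where they were also called against E8 (-0.84 and -0.75, limma adjusted p = 0.018 and 0.014). Their transcripts are GC-rich (69.3% and 70.1%), and neither was called between 24 h and 12 h with the GC trend removed (0.49 and 0.25, adjusted p = 0.22 and 0.42). Both calls were lost without the first 24 h library (adjusted p = 0.25 and 0.18) or the first 48 h library (0.052 and 0.077), and that of ZNF219 also without the second 24 h or the second 48 h library (0.086 and 0.073). ZNF219 shares exon bases with ARHGEF40 and TMEM253 on the opposite strand, and the strand setting is not given in the sources used here. ZNF775 shares exon bases with AC073111.3 and AC073111.4 on its own strand, which a strand setting would not tell apart.

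Genes with and without a KRAB domain were told apart by a pattern of the KRAB A-box in the annotated coding sequences. It was found in 58 members and not in 74, 2 have no coding transcript, and divergent KRAB domains are missed. The KRAB members had a median of 11.5 fingers against 9 without the pattern, 37 of the 58 stood on chromosome 19, and their median GC was 41.6% against 47.9%. At 24 h the median log2 fold change was -0.17 with and -0.125 without the pattern, and with the GC trend removed it was -0.02 in both. At 48 h it was -0.18 with and -0.04 without, and -0.06 and 0.002 with the trend removed. Calls at 24 h were 6 of 58 with the pattern (1 higher, 5 lower) and 8 of 74 without (2 higher, 6 lower). That is 10.3% and 10.8%, beside 16.2% of all tested genes. At 48 h 5 of 58 and 5 of 74 were called, all lower, or 8.62% and 6.76% beside 11.5%. The difference between the 2 kinds of gene was not tested.

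Of the 134 genes 52 stood on chromosome 19, with a median log2 fold change of -0.17 at 24 h and -0.21 at 48 h, beside -0.14 and -0.05 in the 82 on other chromosomes. With the GC trend removed these were -0.05 and -0.07 on chromosome 19 and -0.01 and 0.002 elsewhere. The 15 members between 19 and 25 Mb, the cluster of ZNF91, ZNF93, ZNF43 and ZNF431, had a median GC of 37.2%, a median difference of 0.41 between the first and second E8 library and a median change of -0.17 at 24 h, which was 0.02 with the trend removed. The 10 between 52 and 55 Mb, which include ZNF525 and ZNF677, had -0.28 before and -0.12 after removal. The 13 between 55 and 59 Mb, with ZNF787 and ZNF274, had 0.18 before and 0.145 after removal, at a median GC of 48.7%.

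At the threshold the last genes chosen were ZNF212, with 436.5 and 571.0 normalised reads in E8, ZNF708, with 588.5 and 442.1, and ZNF629, with 432.2 and 620.5. Just below it were ZNF791 (549.2 and 442.1), ZNF28 (543.9 and 429.7) and ZNF384 (481.9 and 485.0). In 96 of the 134 genes all 7 libraries were at 500 or more, ZNF770, ZNF618 and ZNF532 among them. E8 means ran from 503.7 to 5331 with a median of 832.4, the 5 highest being ZNF207, ZNF532, ZNF770, ZNF219 and ZNF664. Genes chosen instead by the mean of the 5 XMD892 libraries (132 genes) had median log2 fold changes of -0.02 at 12 h, -0.13 at 24 h and -0.08 at 48 h. Then 6 were called higher and 8 lower at 24 h, in place of 3 and 12.

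The 342 tested ZNF genes under the threshold had nearly the same median GC, 43.0%, and a median difference of 0.11 between the first and second E8 library, beside 0.165 in the well expressed genes. Their median log2 fold change was nearer to zero, -0.03 at 24 h and 0.03 at 48 h, and with the GC trend removed 0.08 and 0.11. At 24 h 16 of them rose and 17 fell, 9.65% in all beside 16.2% of all tested genes. At 48 h 14 rose and 7 fell, 6.14% in all beside 11.5%. Other zinc finger families were tested in smaller numbers. At 24 h none of 19 ZFP genes (4 at an unadjusted limma p under 0.05), 2 of 18 ZSCAN genes (both higher), 1 of 7 ZKSCAN genes (higher) and 4 of 37 ZBTB genes (3 higher, 1 lower) were called, and at 48 h 1 ZFP (lower), 1 ZSCAN (higher), 1 ZKSCAN (higher) and 6 ZBTB genes (1 higher, 5 lower). The shares called at 24 h were 11.1% of ZSCAN, 14.3% of ZKSCAN and 10.8% of ZBTB genes, beside 16.2% of all tested genes. At 48 h they were 5.26% of ZFP, 5.56% of ZSCAN, 14.3% of ZKSCAN and 16.2% of ZBTB genes, beside 11.5%. The difference between these families and the well expressed ZNF genes was not tested.

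Among 16 genes of the machinery through which KRAB proteins silence chromatin, 3 were called at 24 h, or 18.8% beside 16.2% of all tested genes, and none at 12 h or 48 h by limma, where 3 and 2 had an unadjusted p under 0.05. With the GC trend removed 5 of the 16 were called at 12 h (4 higher, 1 lower), beside 17.0% of all tested genes. At 24 h 2 of the 16 were then called (1 higher, 1 lower), beside 22.6%, and at 48 h 1 (higher), beside 21.2%. TRIM28, the corepressor that KRAB domains bind, had 34750 and 34150 normalised reads at 24 h against 22780 and 25860 in E8 (log2 fold change 0.51, limma adjusted p = 0.018), and lost the call with the GC trend removed (adjusted p = 0.13; transcript GC 63.7%). UHRF1, which brings DNMT1 to newly copied DNA, rose to 2650 and 3072 at 24 h against 1727 and 2280 in E8 (0.52, limma adjusted p = 0.025). ATF7IP, a partner of SETDB1, fell to 2861 and 3385 at 24 h against 5014 and 3812 in E8 (-0.49, limma adjusted p = 0.033). Set against the second E8 library alone, the 24 h differences of UHRF1 and ATF7IP were 0.32 and -0.29. Against the first alone they were 0.72 and -0.69. SETDB1 itself had 718.5 and 708.0 at 24 h against 793.6 and 879.2 in E8 (-0.23, adjusted p = 0.34). The median log2 fold change of the 16 was 0.14 at 12 h, 0.04 at 24 h and -0.01 at 48 h.

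Reads of neighbouring genes may touch some of these counts. Exon bases were shared with a gene on the opposite strand in 41 of the 134 members and with another gene on the same strand in 33, in the GENCODE 29 annotation. Among the genes called, ZNF217, ZNF219, ZNF292, ZNF48, ZNF562, ZNF677 and ZNF770 had an opposite-strand partner, and reads of the 2 strands cannot be told apart without a strand setting.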

How the data were processed

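Poly(A) RNA of 7 H1 samples was sequenced. In the deposited table each value is a signal, the read count of a gene after division by a factor that the authors applied to the whole library. Dividing each value by its library's smallest step gave numbers within 0.1 of a whole read in 100% of values. Per the submitters' processing notes, Trimmomatic 0.36, STAR, featureCounts 1.5.3, DESeq2 1.26.0 and hg38 were used, with no roles stated. The annotation, the strand setting and the handling of multiply mapped reads are not given in the sources used here. Its 2 other columns with values could be matched to no sample and were left out.

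Genes with a mean of 10 or more (16351 of 19775) were tested with limma 3.58.1 (R 4.3.3) on log2(value + 1), so fold changes of low genes are understated. The fit had 1 mean per group over all 7 libraries and a trended prior variance, with 3 residual and 18.4 prior degrees of freedom, and p-values were Benjamini-Hochberg adjusted over all tested genes. The single 12 h library, and the lone library left when a replicate is taken out, are assumed to vary like the other groups. Comparisons were each XMD892 time with E8, 48 h with 24 h and 24 h with 12 h. The script was tested on simulated data.

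Symbols were matched to GENCODE 29 on GRCh38, older symbols included. GC content is that of the longest transcript, known for 16024 tested genes and all 134 members. The GC trend of each library was removed by loess with a span of 0.3. Fingers and the KRAB pattern were searched by script in translated coding sequences, in which 130 members had a finger. Python 3.11.15 made the summaries.

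The members, gene lists and rule for named genes were chosen with earlier results of these data known. The rule named the 5 highest members, 3 genes on each side of the threshold, up to 8 called members each way per comparison whose libraries did not overlap, members called in 1 direction at 24 h and 48 h with and without the GC trend, called cofactors, and 18 genes of known role, of which 15 were members. Alternatives were other pseudocounts, filters and scalings, robust moderation, the recovered reads in edgeR 4.0.16 and in DESeq2 1.42.0, fits of only the groups compared, the replicate number as a block, GC trend removal, leaving out each replicate and other thresholds for membership.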

Additional observations from a re-analysis of the deposited data

Results flagged for a closer look

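Tests of the difference between times set 2 genes apart, since their change against E8 at 24 h differed from that at 12 h. ZNF775 was higher at 24 h than at 12 h (log2 fold change 1.03, limma adjusted p = 0.034), and so was ZNF219 (0.83, limma adjusted p = 0.0496). Both calls were lost without the first 24 h library (adjusted p = 0.25 and 0.18) or without the first 48 h library (0.052 and 0.077). Both 24 h libraries of each gene lay above the 12 h library. At 12 h there was 1 library, so its own deviation and the time cannot be told apart. After removal of the GC trend the differences were 0.49 and 0.25 (adjusted p = 0.22 and 0.42), and both genes have a transcript GC content over 69%. The part of GC content in these differences was not tested further.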

How the results depend on the processing

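No named call changed direction under any alternative run. The group's median, which has no test, turned positive at 12 h without the first E8 library or with the GC trend removed. Other pseudocounts, filters, scalings, edgeR, DESeq2 and robust moderation kept the counts of calls against E8 within 1.5 times of those reported (10, 15 and 10 at 12, 24 and 48 h). Fits of only the groups compared gave 1 call at 12 h, 11 between 48 h and 24 h and 16 between 24 h and 12 h. After removal of the GC trend the counts were 21 at 12 h, 18 at 48 h, 3 between 48 h and 24 h and 0 between 24 h and 12 h, and the medians -0.0237 at 24 h and -0.0240 at 48 h. Without the first E8 library as well, the medians were 0.0274, 0.00295 and 0.00965 at 12, 24 and 48 h, with 4 calls between 48 h and 24 h and 1 between 24 h and 12 h. Without the second E8 library and the GC trend there were 19 calls at 12 h, 19 at 48 h, 4 between 48 h and 24 h and 1 between 24 h and 12 h, and the 24 h median was -0.0622.

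Leaving out 1 replicate gave 8 to 27 calls at 12 h, 6 to 58 at 24 h, 4 to 39 at 48 h, 0 to 11 between 48 h and 24 h and 0 to 8 between 24 h and 12 h. The medians then ran from -0.153 to 0.00931 at 12 h, -0.248 to -0.0478 at 24 h and -0.226 to -0.0484 at 48 h, the ends nearest zero and farthest from it being those without the first and without the second E8 library. Calls against E8 were most numerous without the second E8 library, where the share of all tested genes called at 24 h and 48 h also rose. At 24 h and 48 h they were fewest without a library of that time. The 2 calls between 24 h and 12 h became 1 with a pseudocount of 0.5, TMM factors or edgeR and 4 with DESeq2, and 1 with members chosen by the XMD892 libraries. At an E8 mean of 1000 or more (46 genes) there were 7, 8 and 6 calls at 12, 24 and 48 h. These were 15.2%, 17.4% and 13.0% of the genes, beside 7.46%, 16.2% and 11.5% of all tested genes. Among the 134 the shares were 7.46%, 11.2% and 7.46%. At 250 or more (250 genes) there were 2 calls between 24 h and 12 h, beside 0.391% of all tested genes. The cause of the other differences was not tested.

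Same-numbered replicates did not deviate together (correlations -0.04, -0.05 and -0.07), and the main fit used no pairing. The check cannot exclude a pairing, because the GC trend of each library enters these deviations. With the replicate block 1 call appeared between 48 h and 24 h and 1 of the 2 between 24 h and 12 h was left. With the replicate block and the GC trend removed these were 1 and 0, and the medians were -0.0237 at 24 h and -0.0240 at 48 h. With 2 libraries or 1 in a group, the spread rests on 3 residual degrees of freedom, and a change that misses the threshold is not shown to be absent.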
